A study of Mus musculus with 6 samples.

Results

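Rod photoreceptors carry the dim-light vision of the mouse and are its most numerous retinal cells, and 37 genes of their light response, outer segment and gene regulation were examined here. The genes were taken by symbol from the deposited table, each symbol matched 1 of its 28627 gene IDs, and all 37 passed the filter on low values that left 16681 genes to test. The retina samples came from postnatal day 15 pups that had gone through the oxygen-induced retinopathy model, in which a spell of high oxygen makes retinal capillaries regress and the return to room air leaves the retina hypoxic. There were 3 Emcn+/+ and 3 Emcn-/- littermate samples, both genotypes had been through the model, and no sample without it was analysed here. Emcn encodes endomucin, a sialomucin on the surface of endothelial cells. The labels give the genotype alone, without how the allele was made, and do not say whether each sample is 1 animal, so the tests measure the spread between these samples.

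In the dark, cyclic GMP holds open a cation channel in the rod outer segment. Light activates the opsin pigment, which switches on the G protein transducin, transducin releases the inhibitory subunit of phosphodiesterase 6, and the fall in cyclic GMP closes the channel. The response is ended by a kinase and an arrestin acting on the pigment, by a complex that speeds the hydrolysis of GTP on transducin, and by guanylate cyclases that calcium-binding activators switch on to restore cyclic GMP. Rod fate and the expression of these genes depend on a small set of transcription factors, of which Crx serves rods and cones and Nrl and Nr2e3 set the rod program. Mouse rods build and lengthen their outer segments in the weeks after birth.

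The samples were checked first against Emcn itself, which averaged 91.5 ± 10.05 normalised reads (Emcn+/+) against 2.54 ± 1.86 (Emcn-/-; SD, n = 3 each), with no overlap. A normalised read is the deposited unit, a read count divided by 1 factor per library, and is not adjusted for gene length. Libraries held 14865868 to 17087621 reads, of which the 37 rod genes took 6.15% to 6.95%. Several libraries stood apart. Emcn+/+ replicate 1 had 79577 normalised reads of 19 crystallin genes, a family that includes proteins of the lens, against 1199 to 1774 in the other 5 libraries. Over the 6 lens markers given below, that library had 46639 normalised reads, against 58.4 to 261 in the other 5. In Emcn+/+ replicate 2 the ribosomal RNA repeat gene Rn18s-rs5 took 0.185% of the reads, against 4.29% to 6.78% elsewhere. Emcn+/+ replicate 3 was the only library with many Xist reads (17641, against 1 to 5) and had 0 reads of the Y-linked gene Ddx3y, which had 1143 to 1393 reads in each of the others. In whole retina, fewer rods and less RNA per rod cannot be told apart.

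No rod gene passed the test between the genotypes, while most of the estimates lay slightly above 0. Log2 fold changes, Emcn-/- minus Emcn+/+ on log2(value + 1), were positive for 31 of the 37 genes and negative for 6, against 52.0% positive among all genes tested; the other scalings gave 28 to 31 positive. The median over the rod genes was 0.07, beside 0.0075 over all genes tested and 0.0046 over the 3662 tested genes with a mean of at least 1000 normalised reads. With limma and Benjamini-Hochberg adjustment over all genes, 0 rod genes were called at an adjusted p under 0.05, where 0.00599% of all genes were (only Emcn). Adjusted p of the rod genes ran from 0.476 to 0.990. At an unadjusted p under 0.05 there were 4 rod genes, Gucy2f, Samd7, Gngt1 and Rdh12, where the share over all genes was 8.14%. edgeR on the recovered reads called 0 of the 37 (background 0.00599%). It had 5 at an unadjusted p under 0.05 (background 8.34%). DESeq2 called 0 of the 36 to which it gave an adjusted p. Its background was 1.18% of the 6972 genes given an adjusted p, which did not include Emcn, so it has another base than the limma and edgeR shares. At an unadjusted p under 0.05 DESeq2 had 5 of 37 (background 5.75%). Standard errors were small for these abundant transcripts. Leaving aside the weakly read Guca1a, they ran from 0.05 to 0.12, and the 95% intervals of the other 36 genes, unadjusted for their number, all lay between -0.35 and 0.40, which is 0.787-fold to 1.32-fold. Those bounds are the outermost of the 36 intervals, so differences beyond them were outside each gene's interval, and many intervals were narrower. Within the bounds, 4 unadjusted intervals left out 0, and no difference passed after adjustment with 3 libraries per genotype.

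**Figure D1:**
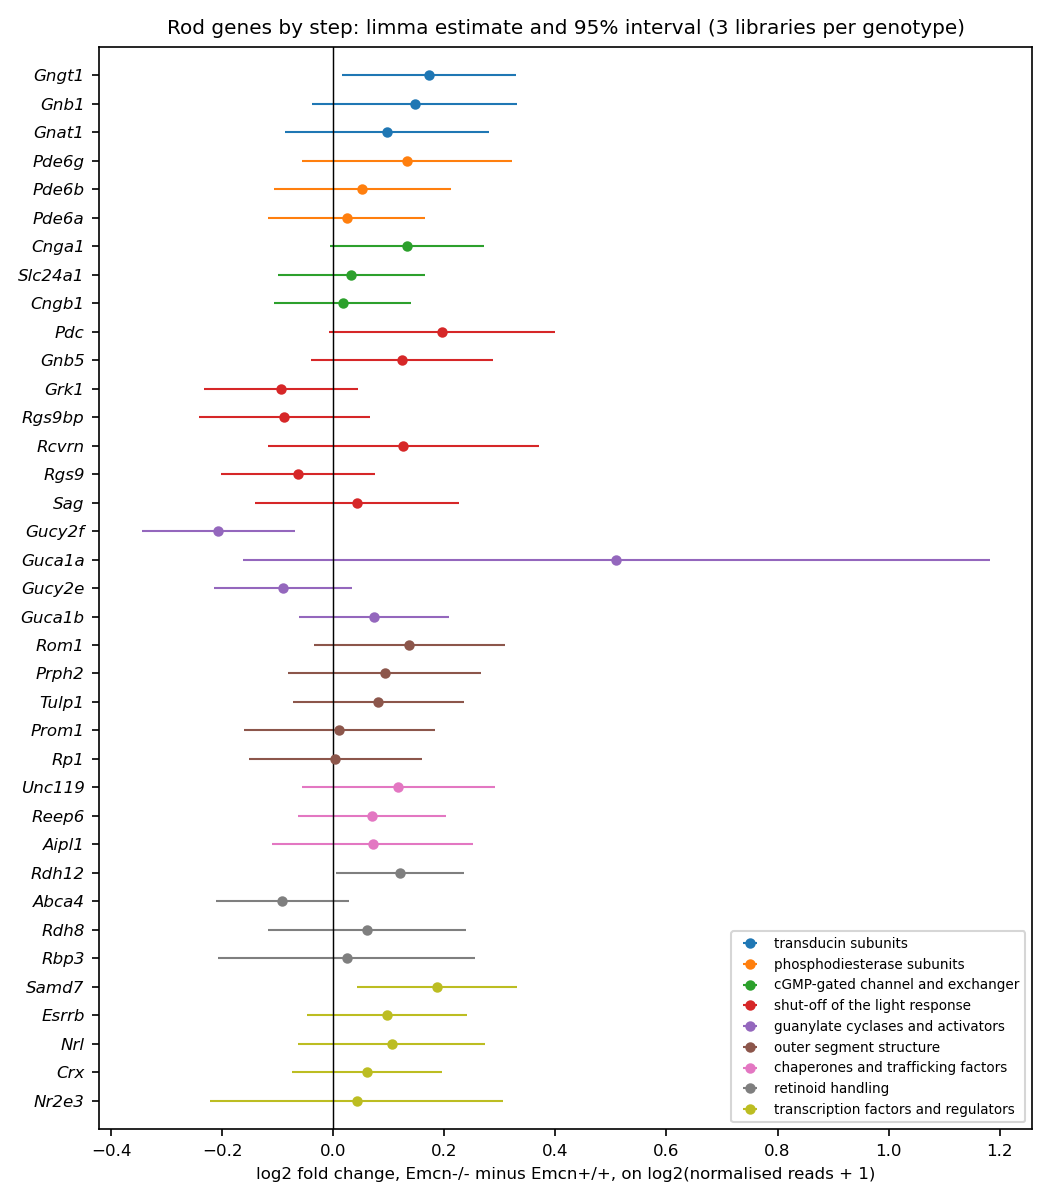
Log2 fold change of each rod gene (x axis, Emcn-/- minus Emcn+/+ on log2(normalised reads + 1)) with its 95% limma interval, unadjusted, for 3 libraries per genotype, coloured by step of the cascade. Of the 37 points 31 lie right of 0, and the intervals of Gngt1, Gucy2f, Rdh12 and Samd7 leave out 0.

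Ranges of the 2 genotypes did not overlap for 8 of the 37 genes. Gngt1, Gnb1, Cnga1, Prph2, Rdh12 and Samd7 had every Emcn-/- value above every Emcn+/+ value (6 genes; 7.48% of all tested genes did so), and Gucy2f and Abca4 had every Emcn-/- value below (2 genes; 6.94% of all tested genes). They are spread over transducin, the channel, the cyclases, the discs, retinoid handling and the regulators.

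The proximal promoters of the 4 genes whose unadjusted intervals left out 0 are shown to let their sequence be compared, from 250 bases before to 50 after the RefSeq start (GRCm38.p6), 5′ to 3′ on the gene's strand. Capitals mark 2 motifs searched on both strands, TAATCC, a core bound by photoreceptor homeodomain factors such as Crx, and TGCTGA, one side of the site of Maf-family factors such as Nrl; these do not overlap each other here.
Gucy2f (chrX:142196887-142197186, minus strand): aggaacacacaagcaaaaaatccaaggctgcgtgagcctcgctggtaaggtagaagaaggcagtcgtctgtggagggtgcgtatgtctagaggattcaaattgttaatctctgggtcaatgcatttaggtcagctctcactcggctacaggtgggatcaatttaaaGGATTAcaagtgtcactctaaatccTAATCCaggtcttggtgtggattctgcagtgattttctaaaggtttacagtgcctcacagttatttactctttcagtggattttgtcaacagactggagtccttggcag
Samd7 (chr3:30746043-30746342, plus strand): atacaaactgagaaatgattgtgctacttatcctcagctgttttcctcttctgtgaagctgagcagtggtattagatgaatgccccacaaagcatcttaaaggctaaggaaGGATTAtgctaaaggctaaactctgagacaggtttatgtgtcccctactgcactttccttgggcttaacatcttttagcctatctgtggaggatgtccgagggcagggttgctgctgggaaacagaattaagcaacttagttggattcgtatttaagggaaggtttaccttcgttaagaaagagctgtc
Gngt1 (chr6:3993758-3994057, plus strand): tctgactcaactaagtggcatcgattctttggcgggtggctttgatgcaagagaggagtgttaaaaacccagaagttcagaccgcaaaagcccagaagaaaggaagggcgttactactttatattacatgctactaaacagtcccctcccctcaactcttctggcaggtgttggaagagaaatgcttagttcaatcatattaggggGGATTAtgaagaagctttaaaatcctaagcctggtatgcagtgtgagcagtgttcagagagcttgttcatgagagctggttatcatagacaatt
Rdh12 (chr12:79208663-79208962, plus strand): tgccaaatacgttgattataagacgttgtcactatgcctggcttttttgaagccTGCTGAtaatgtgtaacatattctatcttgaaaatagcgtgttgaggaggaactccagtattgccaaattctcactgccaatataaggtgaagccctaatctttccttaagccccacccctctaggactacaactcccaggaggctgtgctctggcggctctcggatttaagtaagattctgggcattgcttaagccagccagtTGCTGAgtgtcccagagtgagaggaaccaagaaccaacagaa

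Gucy2f, whose estimate was negative, held TAATCC at 2 places, Samd7 and Gngt1, whose estimates were positive, held it at 1 place each, and Rdh12 held TGCTGA at 2 places. The RefSeq table gave 33 windows for 29 of the 37 rod genes. TAATCC was in 14 of those 33 windows, against 7.06% of all 32851 promoter windows of the same length, and TGCTGA was in 9 of the 33, against 19.5% of all windows. Abca4, Cngb1, Crx, Gucy2e and Sag were among the genes with TAATCC, and Prph2, Nrl, Nr2e3, Pdc and Rom1 had neither motif in this window. Estimates of either sign occurred among the genes with TAATCC and among those without it, and a match is a description of letters only.

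All 3 transducin genes had higher means in Emcn-/-. Gngt1 encodes the gamma subunit that anchors rod transducin to the disc membrane (ENSMUSG00000029663, chromosome 6, 3993792 to 3997436, plus strand, GRCm38 as for all positions here). It had 17211, 19404 and 19519 normalised reads in Emcn+/+ against 20314, 21989.8 and 20852 in Emcn-/-. The lowest Emcn-/- library stood above the highest Emcn+/+ library, and Emcn+/+ replicate 1 was the low one of its group. The difference was 0.17 ± 0.069 on the log2 scale (SE, n = 3 each; limma adjusted p = 0.577), a mean 12.5% higher. Gnb1 encodes the beta subunit, which other G proteins of the retina also use (ENSMUSG00000029064, chromosome 4, 155491361 to 155559269, plus strand). It was the most abundant of the 37 in raw signal, with 84305, 86958 and 90841 normalised reads in Emcn+/+ against 97018, 100466 and 92684 in Emcn-/-, again without overlap (0.15 ± 0.081, limma adjusted p = 0.677). Gnat1, the rod alpha subunit that carries the signal to phosphodiesterase, stood at 85791 ± 3695 (Emcn+/+) against 91738 ± 3504 (Emcn-/-) normalised reads (SD, n = 3), and its ranges overlapped (0.097 ± 0.081, limma adjusted p = 0.767). The median of the 3 log2 fold changes was 0.15.

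Phosphodiesterase 6 is built of 2 catalytic subunits, Pde6a and Pde6b, and the inhibitory subunit Pde6g that transducin displaces. Pde6g (ENSMUSG00000025386, chromosome 11, 120447605 to 120453500, minus strand) had 33015, 34869 and 39695 normalised reads in Emcn+/+ against 37269, 40394 and 39998 in Emcn-/-. Emcn+/+ replicate 3 lay among the Emcn-/- values, so the groups overlapped (0.13 ± 0.083, limma adjusted p = 0.696). Pde6b (ENSMUSG00000029491, chromosome 5, 108388391 to 108432397, plus strand), the gene mutated in the rd1 retinal degeneration mouse, had 28104, 31736 and 28685 normalised reads in Emcn+/+ against 30424, 31864 and 29440.2 in Emcn-/-. Its highest and lowest Emcn+/+ values enclosed 2 of the 3 Emcn-/- values (0.053 ± 0.071, limma adjusted p = 0.861). Pde6a differed least of the trio, at 35276 ± 1354 (Emcn+/+) against 35858 ± 166 (Emcn-/-) normalised reads (0.024 ± 0.062, limma adjusted p = 0.934). Per kilobase of exon, Pde6a was at 1.28 ± 0.0447 times Pde6b in Emcn+/+ and 1.26 ± 0.0441 times in Emcn-/- (SD over libraries, n = 3). The length used counts every exon annotated for a gene, expressed or not, so the size of such ratios depends on the annotation.

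At the end of the cascade, Cnga1, the channel subunit that can form the pore by itself, had a larger estimate than its partner. Cnga1 (ENSMUSG00000067220, chromosome 5, 72603696 to 72644275, minus strand) had 13805, 14713 and 15446 normalised reads in Emcn+/+ against 15680.3, 16625 and 15877 in Emcn-/-. The groups did not overlap, by a gap between Emcn+/+ replicate 3 and Emcn-/- replicate 1 that was narrow beside the spread (0.13 ± 0.061, limma adjusted p = 0.616). Cngb1, the modulatory subunit that also targets the channel to the outer segment, was level at 16339 ± 468 (Emcn+/+) against 16530.3 ± 428 (Emcn-/-) normalised reads (0.017 ± 0.054, limma adjusted p = 0.951). The ratio of Cnga1 to Cngb1 per kilobase was 1.29, 1.32 and 1.37 in Emcn+/+ against 1.40, 1.45 and 1.46 in Emcn-/-, so the ratios did not overlap either, although they are separated by less than the range within Emcn+/+. Slc24a1 encodes the sodium, calcium and potassium exchanger that clears calcium from the outer segment (ENSMUSG00000034452, chromosome 9, 64922861 to 64951607, minus strand). It had 25844, 27373 and 27114 normalised reads in Emcn+/+ against 26954, 27937 and 27266 in Emcn-/-, with Emcn+/+ replicate 1 low and the remaining 5 libraries together (0.033 ± 0.058, limma adjusted p = 0.904).

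The 7 genes grouped under shut-off of the light response were divided in direction, 4 positive and 3 negative, and none passed. The group is wider than the proteins that end the response, since it takes in Pdc and Rcvrn. Pdc encodes phosducin, which binds the beta and gamma subunits of transducin (ENSMUSG00000006007, chromosome 1, 150319417 to 150333906, plus strand). It had 36849, 41469 and 45630.4 normalised reads in Emcn+/+ against 44796, 49214 and 47544 in Emcn-/-, the largest mean difference among the genes of this step, 14.2%. Emcn+/+ replicate 3 lay above Emcn-/- replicate 1, so the groups overlapped (0.20 ± 0.090, limma adjusted p = 0.616). Sag, the rod arrestin that caps the phosphorylated pigment (ENSMUSG00000056055, chromosome 1, 87803680 to 87845158, plus strand), had 69636, 76726 and 73304 normalised reads in Emcn+/+ against 79762, 72317 and 74192 in Emcn-/-, with no order by genotype (0.043 ± 0.081, limma adjusted p = 0.909). Rcvrn, the calcium sensor recoverin that restrains the pigment kinase, stood at 26964 ± 3921 (Emcn+/+) against 29302 ± 2397 (Emcn-/-) normalised reads (0.13 ± 0.11). Its reads may be shared with Glp2r, which lies over it on the opposite strand, since the labels name a directional and a non-directional kit without saying which was used; Glp2r had 6.22% of the signal of Rcvrn.

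The pigment kinase gene Grk1 had a negative estimate, from 28259.5 ± 1146 (Emcn+/+) against 26453 ± 673 (Emcn-/-) normalised reads (-0.095 ± 0.061, limma adjusted p = 0.706). The ratio of Sag to Grk1 per kilobase was 2.53, 2.57 and 2.56 in Emcn+/+ and 3.03, 2.73 and 2.69 in Emcn-/-, without overlap. Among 10 subunit or partner pairs computed in this way, this pair and Cnga1 to Cngb1 were the 2 without overlap, and no test was made of them. Of all tested single genes 14.4% were without overlap, and no share was computed for ratios of other gene pairs. The GTPase-accelerating complex joins Rgs9, its membrane anchor Rgs9bp and Gnb5. Rgs9 (-0.064 ± 0.061, limma adjusted p = 0.798) and Rgs9bp (-0.088 ± 0.068, 0.745) were both slightly negative, and Gnb5, which other cells of the retina also express, was positive (0.12 ± 0.072, 0.683). Rgs9 to Rgs9bp stayed at 0.861 ± 0.0391 per kilobase in Emcn+/+ and 0.875 ± 0.0114 in Emcn-/-.

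Gucy2f gave the smallest p of the 37 genes. It encodes the second of the 2 rod guanylate cyclases, which rebuild cyclic GMP after light (ENSMUSG00000042282, chromosome X, 142081160 to 142196931, minus strand). It had 3877, 3869.6 and 3419 normalised reads in Emcn+/+ against 3262, 3155 and 3240.1 in Emcn-/-. Every Emcn-/- library was below every Emcn+/+ library, and the Emcn-/- values lay close together while Emcn+/+ replicate 3 was nearest to them. The means differed by -13.5%, a log2 fold change of -0.21 ± 0.061 (95% interval -0.35 to -0.069), which did not pass over all genes (limma adjusted p = 0.476; 0.185 with DESeq2 and 0.475 with edgeR). By p it ranked 285 among the 16681 genes. When Emcn+/+ replicate 3 was left out the estimate was -0.27 and passed (limma adjusted p = 0.0455), in a fit that called 151 genes in all; without each of the other libraries the adjusted p ran from 0.688 to 0.943. Gucy2f is X-linked, and the library left out is the one with many Xist reads; the part of sex in this was not tested. Gucy2e, the main cyclase of rods and cones, was also lower in the mean, 12125 ± 542 (Emcn+/+) against 11387 ± 219.9 (Emcn-/-) normalised reads (-0.090 ± 0.055, limma adjusted p = 0.693).

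The genes of the activating proteins had positive estimates. Guca1b (ENSMUSG00000023979, chromosome 17, 47385393 to 47392967, plus strand) had 17277, 18924 and 17987 normalised reads in Emcn+/+ against 19238, 19438 and 18345 in Emcn-/-, with overlap (0.074 ± 0.060, limma adjusted p = 0.758). Guca1a, its neighbour on chromosome 17, had few reads in the table: 35.3, 38.0 and 21.8 normalised reads in Emcn+/+ and 60.4, 36.3 and 39.7 in Emcn-/-. Per kilobase that was 36.3 in Emcn+/+, against 7399.8 for Guca1b. The GENCODE model behind this length has 873 bp of exon, and the cause of the low signal was not tested. Its estimate of 0.51 ± 0.30 had a 95% interval from -0.16 to 1.18 (limma adjusted p = 0.682), too wide to say more.

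Genes of outer segment structure had 5 positive estimates of 5, although Rp1 turned negative with TMM and both Rp1 and Prom1 did when values were scaled to all reads of a library. Prph2 and Rom1 encode the tetraspanins that bend the rims of the discs. Prph2 (ENSMUSG00000023978, chromosome 17, 46910459 to 46924933, plus strand) had 79387, 82022 and 84331 normalised reads in Emcn+/+ against 85256, 89556 and 87252 in Emcn-/-. Its groups did not overlap, with Emcn+/+ replicate 3 just under Emcn-/- replicate 1 (0.093 ± 0.077, limma adjusted p = 0.763). Rom1 (ENSMUSG00000071648, chromosome 19, 8927391 to 8929356, minus strand) had 31919, 33144 and 37071 normalised reads in Emcn+/+ against 36778, 38951 and 36408 in Emcn-/-. Here Emcn+/+ replicate 3 lay within the Emcn-/- range (0.14 ± 0.076, limma adjusted p = 0.676). Tulp1, which serves transport into the outer segment, was at 0.081 ± 0.068 (0.767). Prom1, at the base where discs form, and Rp1, a microtubule protein of the axoneme, were level, at 0.011 ± 0.076 (0.976) and 0.0035 ± 0.069 (0.990).

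Of the chaperone and trafficking genes, Unc119 carries the lipid-bearing transducin alpha subunit (ENSMUSG00000002058, chromosome 11, 78343482 to 78349164, plus strand). It had 25198, 27876 and 30175 normalised reads in Emcn+/+ against 29490.1, 30765 and 29823 in Emcn-/-, with Emcn+/+ replicate 3 inside the Emcn-/- range (0.12 ± 0.076, limma adjusted p = 0.708). Reep6, a membrane-shaping protein of rods (ENSMUSG00000035504, chromosome 10, 80329953 to 80336441, plus strand), had 15871, 16779 and 16005 normalised reads in Emcn+/+ against 17892, 16849 and 16330.0 in Emcn-/-, where 1 Emcn+/+ value lay among the Emcn-/- ones (0.069 ± 0.059, limma adjusted p = 0.772). Aipl1, the chaperone without which phosphodiesterase 6 is not assembled, was at 14586 ± 1451 (Emcn+/+) against 15284 ± 801 (Emcn-/-) normalised reads (0.071 ± 0.080, 0.829).

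Retinoid handling genes were divided, with 3 positive and 1 negative. Rdh12 encodes a dehydrogenase that reduces toxic retinal in the inner segment (ENSMUSG00000021123, chromosome 12, 79208914 to 79222665, plus strand). It had 7994, 8270.3 and 8559.5 normalised reads in Emcn+/+ against 8914, 9176 and 8887 in Emcn-/-. The groups were apart and the spread within each was small (0.12 ± 0.051, limma adjusted p = 0.599), with means 8.67% apart. Rdh8, the outer segment counterpart, overlapped (0.061 ± 0.078, 0.855). Rbp3, the carrier of retinoids between rods and pigment epithelium (ENSMUSG00000041534, chromosome 14, 33954003 to 33964216, plus strand), had 75294, 81956 and 95682 normalised reads in Emcn+/+ against 82884, 84465 and 88709 in Emcn-/-. Emcn+/+ replicates 1 and 3 were its lowest and highest values, and the Emcn-/- values lay between (0.024 ± 0.10, limma adjusted p = 0.963). Abca4, the disc flippase that removes retinal adducts, was lower in each Emcn-/- library, at 17706 ± 400.2 (Emcn+/+) against 16615 ± 280.3 (Emcn-/-) normalised reads (-0.092 ± 0.053, limma adjusted p = 0.682). That estimate was -0.013 once the trend of values with exonic length was removed in each library.

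All 5 transcriptional regulators had positive estimates, with a median of 0.097. Samd7 encodes a Polycomb-associated protein of rods that keeps nonrod genes silent (ENSMUSG00000051860, chromosome 3, 30746293 to 30767174, plus strand). It had 2600.0, 2706 and 2796 normalised reads in Emcn+/+ against 2910.4, 3329.8 and 2991 in Emcn-/-. No Emcn+/+ library reached an Emcn-/- one, and Emcn-/- replicate 2 was the highest (0.19 ± 0.063, 95% interval 0.042 to 0.33, limma adjusted p = 0.522). Nrl, the leucine zipper factor that specifies rods (ENSMUSG00000040632, chromosome 14, 55518978 to 55524981, minus strand), had 33585, 34976 and 36941 normalised reads in Emcn+/+ against 37047, 40658 and 35835 in Emcn-/-. The top Emcn+/+ value exceeded the bottom Emcn-/- one (0.10 ± 0.074, limma adjusted p = 0.721). Its target Nr2e3, which represses cone genes in rods, varied most, from 10564 in Emcn-/- replicate 3 to 14712 in Emcn-/- replicate 2 (0.042 ± 0.12, 0.939). Crx (0.061 ± 0.060, 0.800) and the orphan receptor Esrrb (0.097 ± 0.064, 0.709) had overlapping ranges.

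The number of positive estimates depended on 1 Emcn+/+ library more than on any other. Emcn+/+ replicate 1 held the lowest of the 6 values for 29 of the 37 genes, and its median deviation from the gene means was -0.11 on the log2 scale. The other libraries had medians of -0.0087 and 0.020 in Emcn+/+ and of 0.012, 0.083 and 0.028 in Emcn-/-. Emcn-/- replicate 2 held the highest value for 20 genes. Without Emcn+/+ replicate 1, 23 of 37 estimates were positive and the median was 0.037, beside 51.3% positive among all genes. Without Emcn+/+ replicate 3 the median was 0.12, with 31 positive. The share of reads taken by the 37 genes, with Rn18s-rs5 left out of the total, was 6.47%, 6.90% and 7.11% in Emcn+/+ against 7.02%, 7.26% and 7.10% in Emcn-/-, with overlap. The library low in rod genes is the one with lens crystallins, which took 0.505% of its reads; the part of this in the result was not tested. Emcn-/- replicate 2, high in rod genes, was the low one in endothelial markers, with a mean log2 deviation of -0.67 over the 8 genes against 0.056 to 0.19 in the other 5, and that too was not tested. Sample titles form 2 number series. In the series with 2 samples of each genotype the median difference was 0.11 with 31 genes positive, and in the series with 1 of each it was -0.0044 with 18 positive. The former holds Emcn+/+ replicate 1 and Emcn-/- replicate 2, and the latter Emcn+/+ replicate 3 with its many Xist reads. Title series, these libraries and sex therefore cannot be told apart here.

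**Figure D2:**
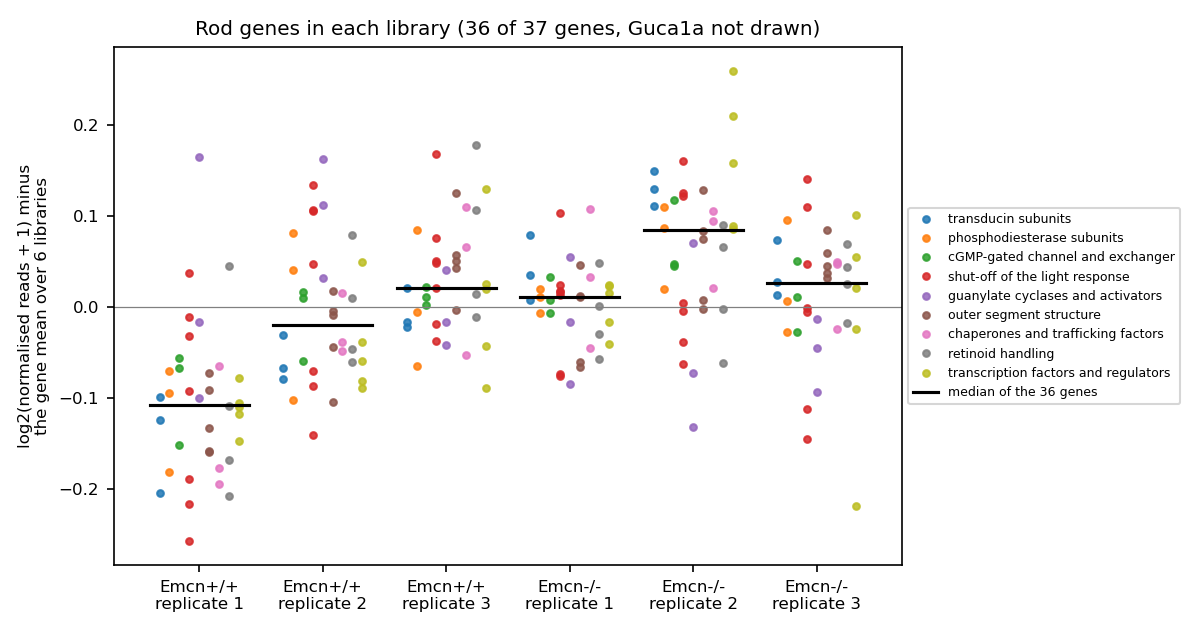
Deviation of each rod gene from its own mean over the 6 libraries (y axis, log2(normalised reads + 1)), for 36 genes coloured by step, with the median of the 36 as a bar. Emcn+/+ replicate 1 lies lowest and Emcn-/- replicate 2 highest, while the other 4 libraries lie near 0.

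The estimates of the rod genes were lower in longer genes. All 20 rod genes in the 3 shorter quintiles of exonic length had positive estimates, and the 6 negative ones (Gucy2f, Gucy2e, Grk1, Rgs9, Rgs9bp and Abca4) were all in the 2 longer quintiles. In the longest quintile, 3 of 7 rod genes were positive, with a median of -0.090. The same direction held for all tested genes, whose median went from 0.078 in the shortest quintile to -0.072 in the longest, with 64.9% and 27.6% positive. Across the 37 genes the Spearman correlation of log2 fold change with exonic length was -0.67 and the Pearson correlation with log10 length -0.69; these are descriptions over genes that share the same 6 libraries. When a loess trend on length was removed in each library the median of the rod genes was 0.079, with 31 positive, beside 54.7% over all genes. Gucy2f was then at -0.17, Grk1 at -0.052 and Gucy2e at -0.043, and the lowest limma adjusted p was 0.664.

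**Figure D3:**
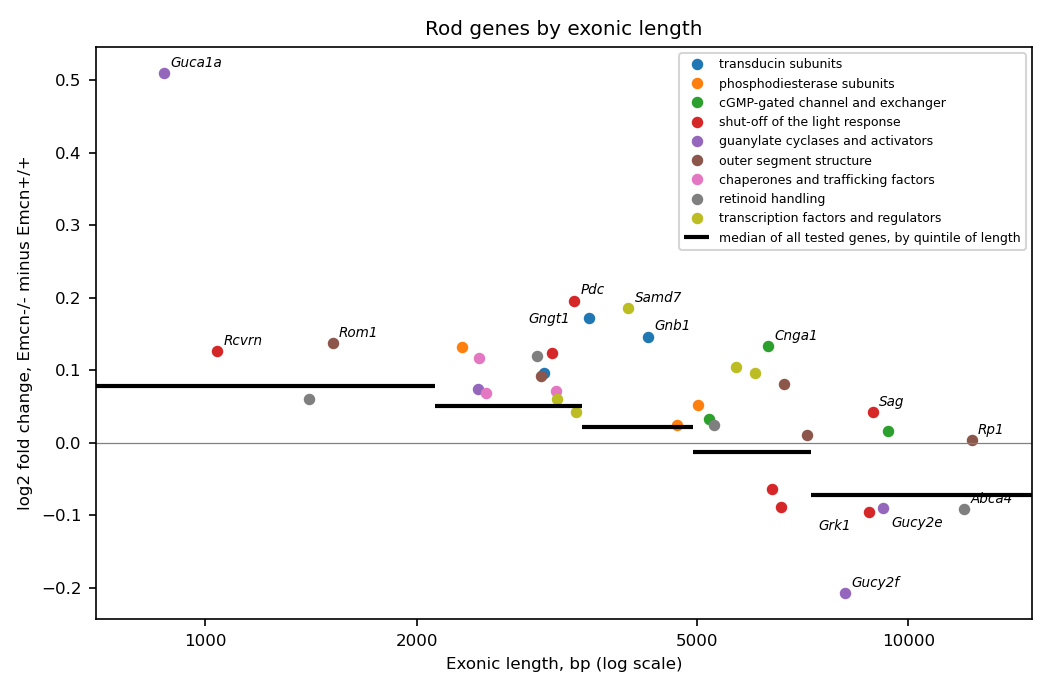
Log2 fold change (y axis, Emcn-/- minus Emcn+/+) of the 37 rod genes against exonic length in bp (x axis, log scale), coloured by step, with bars at the median of all tested genes in each quintile of length, drawn as far as the axis reaches. Points and bars both go down to the right, and the 6 negative points are long genes.

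Levels per kilobase of exon kept nearly the same order in both genotypes. Because the length counts all annotated exons, the order of the genes partly follows the annotation and is not a ranking of transcript numbers. Gnat1 led with 28323 normalised reads per kilobase in Emcn+/+ and 30286 in Emcn-/-, followed by Prph2 (27286 and 29099), Rcvrn (25927 and 28175), Rom1 (22442 and 24640.2) and Gnb1 (20470.5 and 22662). Rbp3 and Pde6g, the sixth and the seventh, exchanged places, being 15923 and 15477 in Emcn+/+ and 16119.5 and 16927 in Emcn-/-. The regulators stood below the genes just named, with Crx at 6422, Nrl at 6182, Nr2e3 at 3605, Esrrb at 1272 and Samd7 at 675 in Emcn+/+. Crx and Nrl were above cascade genes such as Pde6b (5871) and Gngt1 (5323) in Emcn+/+. At the low end stood Gucy2f, at 458 in Emcn+/+ and 396 in Emcn-/-, and Guca1a. The larger cyclase signal came from Gucy2e, which was 2.89 ± 0.238 times Gucy2f per kilobase in Emcn+/+ and 3.12 ± 0.0207 times in Emcn-/-.

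Among related genes outside the 37, limma and edgeR called none, and of those named here DESeq2 called Cep290, lower in Emcn-/-. Of 26 further outer segment and cilium genes, 17 had positive estimates and 9 negative, with a median of 0.051 and 0 called with limma. Without Emcn+/+ replicate 1 the count was 11 of 26 positive and the median -0.020, and without Emcn+/+ replicate 3 limma called 2. The smallest p belonged to Cep290, a gatekeeper of the connecting cilium and a long gene, with every Emcn-/- value below every Emcn+/+ value. It averaged 2382 ± 118 (Emcn+/+) against 1963 ± 20.4 (Emcn-/-; -0.28 ± 0.054, adjusted p = 0.374 with limma, 0.387 with edgeR and 0.0193 with DESeq2). Of 9 further regulators of photoreceptor fate, 4 were positive and 5 negative, with a median of -0.014 and 0 called by the 3 tools (median 0.0098 without Emcn+/+ replicate 2); Casz1 (-0.17 ± 0.052, limma adjusted p = 0.493) and Rax (0.14 ± 0.070, 0.643) had the smallest p. Cone counterparts of the cascade were positive for 7 of 11, with a median of 0.12 and 0 called by the 3 tools, led by the cone arrestin gene Arr3 (0.31 ± 0.10, limma adjusted p = 0.522) and the inhibitory subunit gene Pde6h (0.67 ± 0.24, 0.534). The cone median was 0.060 without Emcn+/+ replicate 1 and 0.037 without Emcn-/- replicate 3.

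Marker genes of neighbouring cells and tissues are given beside the rod result, and their part in it was not tested. Summed pigment epithelium markers (11 genes, none at 0 throughout) ran from 3744 to 7855 normalised reads in Emcn+/+ and from 8833 to 12342 in Emcn-/-; 10 of 10 tested were positive, with a median of 0.88, led by Dct and Ttr. Lens markers (6 genes) ran from 58.4 to 46639 and from 107 to 261, with Cryba1 and Mip leading by p. All 5 tested lens genes were negative (median -1.47) through Emcn+/+ replicate 1, and without that library all 5 were positive (median 1.04), the other Emcn+/+ sums being 58.4 and 63.3. Müller glia markers ran from 57723 to 74982 and from 69535 to 81072, with 5 of 8 positive (median 0.18; Apoe and Car14). Bipolar markers were positive for 2 of 8 (median -0.030; Pcp2 and Prkca), amacrine for 3 of 8 (-0.047; Tfap2a and Gad1), horizontal for 1 of 5 (-0.17; Onecut2 and Onecut1), ganglion cell for 4 of 8 (0.024; Sncg and Pou4f2), microglia for 3 of 8 (-0.029; Aif1 and P2ry12) and endothelium for 1 of 8 (-0.24; Kdr and Tek). Without Emcn-/- replicate 2 the endothelial markers were positive for 5 of 8 (median 0.060), and without Emcn+/+ replicate 3 the microglial markers were for 7 of 8 (0.15). Medians of the bipolar, amacrine and ganglion cell lists also changed sign with 1 library left out, while the pigment epithelium list was positive for 10 of 10 with each library left out in turn. Limma and edgeR called none of these genes, DESeq2 called Apoe (adjusted p = 0.00115, higher in Emcn-/-), and the 2 names in each list are those with its smallest p.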

How the data were processed

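Poly-A RNA of 6 retina samples was sequenced, from 1.3 µg of RNA per library per the labels' protocols, and the build was GRCm38 per the submitters' processing notes; aligner, counter and annotation: not given in the sources used here. Values as deposited by the authors are a signal of scaled read counts per gene: in each library 100% of values were whole multiples of 1 step (0.924 to 1.09; tolerance 0.001 read), and whole reads were recovered by dividing by it. The 6 value columns were all used. The planned test was kept: limma 3.58.1 in R 4.3.3, its prior variance following mean intensity, on log2(value + 1), genotype as the only term, on the 16681 genes passing edgeR's filter (minimum count 10), with Benjamini-Hochberg adjustment over all of them and calls at 0.05. Fold changes on this scale understate low genes. Alternatives on recovered reads used edgeR 4.0.16, which called 1 gene, and DESeq2 1.42.0, which called 82 of the 6972 to which it gave an adjusted p. Exonic lengths and positions came from GENCODE M21 (98.4% of tested genes had one) and promoters from RefSeq. The fit was tested on simulated data whose changes were larger than the estimate of any rod gene, so differences of the size seen here were not covered.

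The 37 genes, the steps, the other lists and the pairs were chosen with earlier results of these data known. Values in every library are given for the gene of smallest p and the gene of highest mean in each step (the second smallest p where both are the same gene), and for Guca1a, chosen after its values were seen; the pair ratios and shares of reads were also added after the values were seen. Of each other list the 2 genes of smallest p are named, except 1 that is not reported here. Alternatives covered scaling, filter, pseudocount, each library left out, the title series, exonic length and the model.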

Additional observations from a re-analysis of the deposited data

How the results depend on the processing

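No paired analysis was possible because the labels give no replicate numbers and the numbers used here only name samples. With all 6 libraries kept, each alternative scaling, filter, pseudocount, block for the title series, length trend and model called 0 rod genes and gave 28 to 31 positive estimates with medians of 0.051 to 0.079; RPM (reads scaled to the library total) without Rn18s-rs5, chosen after seeing the data, was among them. Leaving out 1 library at a time gave 0 to 1 called (Gucy2f, without Emcn+/+ replicate 3), 23 to 31 positive and medians of 0.037 to 0.12. Without Emcn+/+ replicates 1, 2 and 3 in turn, 11, 14 and 20 of the 37 genes were without overlap. Over all tested genes the shares were 23.1%, 21% and 35.9%. Without Emcn-/- replicates 1, 2 and 3 in turn there were 13, 9 and 12, beside 24.1%, 22.8% and 23.1%. With all libraries the share over all tested genes was 14.4%, and fewer samples raise the count by construction. Of 629 values of single genes over the alternatives, 608 kept their direction and side of the threshold; 23 genes were positive and 6 negative in all 18 settings. Rp1 turned to -0.0039 with TMM, -0.016 with RPM of all reads, -0.0051 with RPM without Rn18s-rs5, -0.0040 with edgeR and -0.0020 with DESeq2; with RPM of all reads Cngb1 turned to -0.0031 and Prom1 to -0.0093. With a library left out the ranges that crossed 0 were -0.032 to 0.035 for Rp1, -0.0069 to 0.035 for Cngb1, -0.053 to 0.076 for Prom1, -0.0049 to 0.050 for Pde6a, -6.6e-06 to 0.14 for Aipl1, -0.054 to 0.12 for Rbp3, -0.028 to 0.13 for Rdh8 and -0.077 to 0.16 for Nr2e3. Depth limits only Guca1a among the 37, at 21.8 to 60.4 normalised reads.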

Other observations

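Genes annotated over the span of a rod gene had estimates of either sign relative to it, more often the opposite one. GENCODE M21 places 16 genes of the table over 10 of the 37 rod genes. Glp2r over Rcvrn, Gm15507 and Gm7616 over Nr2e3 and Gm43157 over Abca4 had the sign of their rod gene. Negative estimates over positive rod genes were those of Rps2-ps10 (Pde6a), Gm5297 (Cnga1), Gm48677 and Gm19531 (Gnb5). The same held for 2310030A07Rik and Gm37764 (Pdc) and for Gm16401 and Gm42716 (Prom1). Gm13171, Gm6101, Gm37483 and Gm43158 were not tested. The 3 genes given next are those whose genotypes did not overlap, all lower in Emcn-/-, as were 6.94% of all tested genes. Over Pdc, which was positive, the antisense gene 2310030A07Rik had 107 ± 17.6 normalised reads (Emcn+/+) against 60.9 ± 3.08 (Emcn-/-; SD, n = 3 each; log2 fold change -0.79 ± 0.17, limma adjusted p = 0.376), without overlap. Gm42716, a processed transcript on the strand of Prom1, which was level, had 78.7 ± 13.1 and 37.9 ± 7.37 (-1.04 ± 0.22, limma adjusted p = 0.376), without overlap. Gm48677, antisense to Gnb5, had 127 ± 21.2 and 95.2 ± 7.53 (-0.40 ± 0.16, limma adjusted p = 0.581), again without overlap. None passed, these 3 held 0.190%, 0.414% and 1.26% of the signal of their rod gene, and reads of the opposite strand or of unspliced rod transcripts were not separated here.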
